A study of Rattus norvegicus with 12 samples.

Results

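The renal cortex of rats bled under isoflurane was compared with that of rats bled under a mixture of CO2 and O2 at 4 to 1. All 12 of the 12 rats in the study entered, 6 per anesthetic, and were grouped by the anesthetic that their sample titles name. They were male Sprague-Dawley rats, 5 weeks old at purchase, kept on a basal diet and a daily light and dark cycle. In each set of 6, 3 rats had received water for 4 weeks (the group labelled VC) and the other 3 tert-butyl alcohol at 1000 mg/kg/day over the same time (abbreviated TBA, an organic solvent that also forms from ether additives of petrol). All were bled 24 h after the last administration, and the hour of the day is not given in the sources used here. Whether that hour was the same for both anesthetics could therefore not be tested. The anesthetic effect is the mean of the difference in the VC rats and the difference in the TBA rats, so a TBA effect that is the same under both gases cancels. RNA from each rat was hybridised to 1 array, and the design text calls the 3 rats of a group biological replicates. The question is which kidney transcripts depend on how the animal was anesthetised, a step that the controls share with the treated rats.

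Genes of the circadian clock are described first, since the 3 clock lists had the most called members of the lists looked at. In that feedback loop the transcription factors Bmal1 and Clock, or its relative Npas2, switch on the genes of the Period and Cryptochrome proteins and of the Rev-erb receptors Nr1d1 and Nr1d2, whose products in turn shut off Bmal1 and Clock or their genes. The same activators drive the output factors Dbp and Tef, which pass the rhythm on to other genes. In the kidney the clock is known to time the transport of salt and water along the tubule, and transcripts of Bmal1 and of Dbp peak at nearly opposite times of day.

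Values are log2 of the array's processed signal relative to the 75th percentile of that array, so a probe at 0 is as bright as that percentile and levels of different genes are not compared. Between 61.6% and 71.0% of the 61657 probes of an array were well above its background, and pairs of arrays within a group had a correlation of 0.989 to 0.994. Of 171 cell type markers listed, 142 were among the features tested. They held 12 of 12 of the early proximal tubule and 10 of 10 of podocytes, but also 4 of 5 of urothelium and 6 of 8 of adipocytes. Being tested therefore does not by itself show which tissue was sampled. There were 3 slides and 2 scan days. The 3 VC CO2-O2 arrays shared slide 1, the only one of scan day 1, with rat 3 of the TBA CO2-O2 group. Rats 1 and 2 of that group shared slide 2 with the 3 VC isoflurane rats, and the 3 TBA isoflurane rats filled slide 3. In VC rats the anesthetic therefore cannot be told apart from slide and scan day, and in TBA rats every isoflurane array lay on slide 3.

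Of 29603 features tested, 85 (0.287%) differed between the anesthetics by limma at a Benjamini-Hochberg adjusted p under 0.05. Under isoflurane 53 (0.179%) were higher and 32 (0.108%) lower, and the change was 2-fold or more for 7. Before adjustment 5085 (17.2%) had a p under 0.05. Among the 85 were 29 genes with a symbol, 14 higher and 15 lower. Clock genes made up 6 of these 29: the activators Bmal1 and Npas2 fell, and Per2, Per3, Tef and Wee1 rose. The count of 85 was 46 without VC CO2-O2 rat 1, 17 without VC CO2-O2 rat 3, 20 without TBA CO2-O2 rat 1, 26 without VC isoflurane rat 2, 38 without VC isoflurane rat 3, and 43, 37 and 37 without TBA isoflurane rats 1, 2 and 3. With scan day as a fixed term, which rests on TBA CO2-O2 rat 3 against rats 1 and 2, it was 12, and Bmal1 was the 1 gene of the 29 that was still called.

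Bmal1, the activator without which the clock stops, was lower in every isoflurane rat than in any CO2-O2 rat. In VC rats its log2 level was -0.54, -0.53 and 0.22 under CO2-O2 and -2.68, -3.03 and -2.44 under isoflurane. In TBA rats it was 1.51, 0.82 and 0.32 under CO2-O2 and -0.68, -0.86 and -0.84 under isoflurane. The isoflurane rats lay below the CO2-O2 rats in each set, with no overlap over all 12 arrays, and TBA rats stood above VC rats under either gas. The averaged difference was -2.06 ± 0.21 on the log2 scale (SE, n = 3 rats per group), or 4.16-fold lower under isoflurane (limma adjusted p = 0.00792). It was -2.44 ± 0.30 in VC rats (limma adjusted p = 0.0304) and -1.68 ± 0.30 in TBA rats (limma adjusted p = 0.141). Its 2 probes gave -1.94 and -2.06. Its call held without any 1 of the 12 arrays and with scan day as a fixed term, with differences of -2.62 to -1.75 over the other settings.

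Npas2, which can stand in for Clock as the partner of Bmal1, fell by 0.99 on the log2 scale (SE 0.14, limma adjusted p = 0.0310). Its levels under CO2-O2 were -0.90, -1.21 and -0.61 in VC and 0.14, 0.06 and -0.30 in TBA rats, and under isoflurane -1.73, -2.34 and -1.63 in VC and -1.03, -1.0 and -1.0 in TBA rats. The groups did not overlap within VC or within TBA rats, although VC CO2-O2 rat 2 lay below the TBA isoflurane rats. A second, dimmer Npas2 probe differed by 0.03, so the fall was seen with 1 of 2 probes, and the call held in 4 of 12 omissions of 1 array. Nfil3, a repressor of D-box genes that the list places with the activators because it peaks near them, stood at -0.95 ± 0.24 (limma adjusted p = 0.106). Clock stood at -0.25 in VC and in TBA rats (limma adjusted p = 0.153 for the mean), and for both genes the 2 anesthetics did not overlap within either set. Bmal2, a relative of Bmal1, stood at 0.15 (limma adjusted p = 0.580). Over the 5 genes tested of the activator list the median difference was -0.95, which is the value of Nfil3, against 0.01 over all features. No probe here carried the symbol of Rora or Rorb, which were on the list.

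The repressors of the loop lay on the other side. Per2, a Period protein that blocks Bmal1 and Clock, stood in VC rats at 0.27, 0.64 and 0.29 under CO2-O2 and at 1.27, 1.63 and 1.30 under isoflurane. In TBA rats it stood at -0.06, 0.13 and 0.47 under CO2-O2 and at 0.92, 0.88 and 0.98 under isoflurane. Every isoflurane rat was above every CO2-O2 rat. The averaged rise was 0.87 ± 0.11 (limma adjusted p = 0.0167), 1.00 in VC and 0.75 in TBA rats. Without VC CO2-O2 rat 3 it was no longer called (limma adjusted p = 0.0596).

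Per3, the third Period gene, varied little within groups. Under CO2-O2 it lay at -1.81, -1.77 and -1.88 in VC and -2.04, -1.70 and -1.88 in TBA rats. Under isoflurane it lay at -1.22, -1.22 and -1.23 in VC and -1.38, -1.31 and -1.32 in TBA rats. The 6 isoflurane rats stood together above the 6 CO2-O2 rats. The rise was 0.56 ± 0.06 (limma adjusted p = 0.00792), 0.60 in VC and 0.53 in TBA rats, and 5 of 5 probes stood at 0.56 to 1.14, of which 3 were called when each probe was tested on its own. With the mean of its probes Per3 was not called (limma adjusted p = 0.0555), nor with scan day as a fixed term. Per1, which also answers to hormones and stress, was scattered within groups, with VC CO2-O2 rat 2 at -3.46 and TBA isoflurane rat 2 at -2.63, and its difference was 0.70 ± 0.37 (limma adjusted p = 0.375).

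Ciart, a repressor of Bmal1 and Clock also called Chrono, had the highest difference of all 29603 features and did not pass the test. Its levels in VC rats were -2.67, -2.96 and -3.64 under CO2-O2 and -0.63, -0.70 and -0.58 under isoflurane. In TBA rats they were -5.77, -4.65 and -3.01 under CO2-O2 and -2.41, -2.66 and -1.41 under isoflurane. The 6 isoflurane rats all lay above the 6 CO2-O2 rats, but the CO2-O2 rats spread widely. The averaged difference was 2.39 ± 0.42, or 5.22-fold (limma adjusted p = 0.0525), with 2.45 in VC and 2.32 in TBA rats. Without TBA CO2-O2 rat 3 Ciart and Dbp both passed. Nr1d2, the receptor Rev-erb beta, stood at 0.73 ± 0.13 (limma adjusted p = 0.0551), with no overlap within either set. Its relative Nr1d1, Rev-erb alpha, stood at 0.56 ± 0.25 (limma adjusted p = 0.292).

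The Cryptochromes, partners of the Period proteins, were not called with their brightest probes. Cry1 in VC rats lay at -1.43, -1.36 and -1.34 under CO2-O2 and at -0.62, 0.04 and -0.56 under isoflurane. In TBA rats it lay at -0.70, -1.29 and -1.49 under CO2-O2 and at -1.34, -1.25 and -1.20 under isoflurane. The groups were apart in VC rats and overlapped in TBA rats, with differences of 1.00 and -0.11 and a mean of 0.45 (limma adjusted p = 0.179). The difference between the sets did not pass for Cry1 (limma adjusted p = 0.257). Cry2 stood at 0.24 ± 0.06 with its brighter probe (limma adjusted p = 0.106). A second, dimmer probe gave 0.67 and was called on its own (limma adjusted p = 0.0275). With the mean of its probes Cry2 was called as well. Of the others on the repressor list, Bhlhe40 stood at 0.10, and the casein kinases Csnk1d and Csnk1e, which mark Period proteins for decay, at -0.10 and 0.08. Over the 11 repressors tested the median was 0.56, with 10 above 0. Bhlhe41 had no probe by symbol.

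Of the output genes, Tef and Wee1 rose. Tef, a D-box factor, lay in VC rats at 3.56, 3.58 and 3.38 under CO2-O2 and at 3.94, 4.23 and 4.13 under isoflurane. In TBA rats it lay at 2.65, 3.04 and 3.19 under CO2-O2 and at 3.65, 3.49 and 3.81 under isoflurane. The groups were apart within each set, while TBA isoflurane rat 2 lay below 2 of the VC CO2-O2 rats. The rise was 0.64 ± 0.10 (limma adjusted p = 0.0414). Wee1, a kinase that delays mitosis and is switched on by the clock, rose by 0.51 ± 0.08 (limma adjusted p = 0.0416), with 3 of 3 probes at 0.49 to 0.51. Neither call held with scan day as a fixed term, with slide as a random block or with no filter on dim probes, nor that of Wee1 with median scaling. In 12 omissions of 1 array Tef was called in 1 (without TBA CO2-O2 rat 3) and Wee1 in 2 (without that rat or VC isoflurane rat 1).

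Dbp, a D-box factor known for a wide daily swing, lay in VC rats at 5.57, 5.75 and 4.92 under CO2-O2 and at 6.49, 6.58 and 6.47 under isoflurane. In TBA rats it lay at 3.32, 4.49 and 4.97 under CO2-O2 and at 5.75, 5.99 and 5.95 under isoflurane. Isoflurane rats were higher within each set and close to one another, and CO2-O2 rats were spread. The difference was 1.37 ± 0.25 (limma adjusted p = 0.0579), with 4 of 4 probes at 1.37 to 1.48. Usp2, a clock-driven deubiquitinase, stood at 0.58 ± 0.14 (limma adjusted p = 0.102), and Noct, a phosphatase with a nocturnal rhythm in mice, at 0.21 (limma adjusted p = 0.794). The 5 output genes tested were all above 0, with a median of 0.58. Hlf had no probe by symbol.

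**Figure D1:**
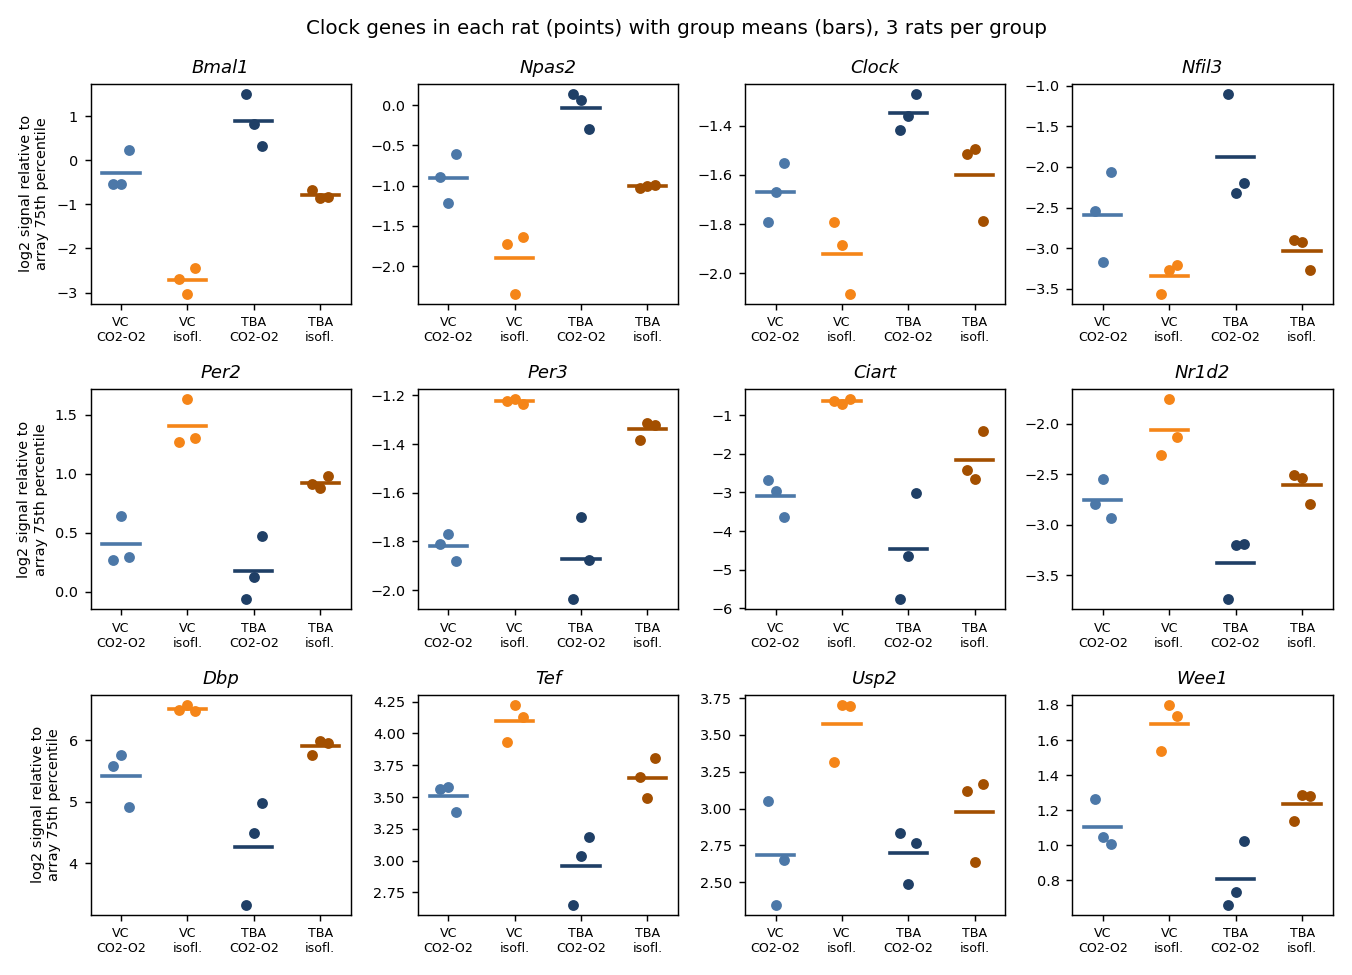
Each panel plots 1 clock gene as the log2 signal relative to the array's 75th percentile, with 1 point per rat and a bar at the mean of the 3 rats of a group (isofl., isoflurane). Bmal1 drops under isoflurane in VC and in TBA rats, by 2.44 and 1.68, while Ciart stands 2.45 and 2.32 higher, and the points of Dbp and Ciart spread more under CO2-O2.

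In all, 21 of the 26 clock genes listed were tested, each measured clearly above background in all 3 rats of 1 or more groups. Of these 6 were called (0.287% of all features were), 14 had an unadjusted p under 0.05 (17.2% of all features did) and 19 had the same sign in VC and in TBA rats (54.7% of all features did). For 11 of the 21 the anesthetics did not overlap in either set and lay the same way round (3.09% of all features, with 1.65% lying opposite ways round), and for 4, Bmal1, Per2, Per3 and Ciart, the 6 and 6 arrays did not overlap (1.2% of all features). The number called was 8 without TBA CO2-O2 rat 3. It was 3 without VC CO2-O2 rat 1, TBA CO2-O2 rat 1 or 2, or any 1 of the 3 TBA isoflurane rats, and 2 without VC CO2-O2 rat 3. Bmal1 and Per3 were called in each of these. It was 4 with slide as a random block and 3 with no filter on dim probes. With scan day as a fixed term 1 was called, Bmal1.

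Clock genes also varied more between rats of a group under CO2-O2. The SD within groups, pooled over VC and TBA rats, was larger under CO2-O2 for 18 of the 21 clock genes, against 47.3% of all features. For Dbp it was 0.677 under CO2-O2 and 0.0982 under isoflurane, and for Ciart 1.04 and 0.471. The median over the clock genes was 0.282 under CO2-O2 and 0.191 under isoflurane, and over all features 0.140 and 0.141. No test was made of this difference. Among the TBA CO2-O2 rats, rat 1 had the highest Bmal1 and the lowest Ciart, Dbp, Per2 and Tef, and rat 3, on another slide than rats 1 and 2, had the lowest Bmal1 and the highest Ciart, Dbp, Per2 and Tef.

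Promoters of 4 clock genes described above are shown for the letters that clock factors are known to read, and were chosen because they hold a match. They are the 250 bases before the start of the gene, 5′ to 3′ along the gene, from RefSeq on the GRCr8 build. Capitals mark the match: the Rev-erb and Ror element TAGGTCA in Bmal1 (chr1:176766078-176766327 on the plus strand), the E-box CACGTG read by Bmal1 and Clock in Ciart (chr2:186112247-186112496 on the minus strand) and in Tef (chr7:115206577-115206826 on the plus strand), and the D-box TTANGTAA in Per2 (chr9:99496994-99497243 on the minus strand).
Bmal1: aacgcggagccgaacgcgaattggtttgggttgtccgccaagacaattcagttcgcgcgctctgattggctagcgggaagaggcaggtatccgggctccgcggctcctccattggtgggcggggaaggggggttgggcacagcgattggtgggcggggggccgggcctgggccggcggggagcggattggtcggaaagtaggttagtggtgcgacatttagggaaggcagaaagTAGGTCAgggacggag
Ciart: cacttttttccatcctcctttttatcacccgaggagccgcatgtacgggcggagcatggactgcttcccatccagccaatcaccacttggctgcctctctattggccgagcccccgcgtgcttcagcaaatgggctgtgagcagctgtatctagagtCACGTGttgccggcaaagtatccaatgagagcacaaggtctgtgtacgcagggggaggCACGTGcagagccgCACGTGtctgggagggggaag
Tef: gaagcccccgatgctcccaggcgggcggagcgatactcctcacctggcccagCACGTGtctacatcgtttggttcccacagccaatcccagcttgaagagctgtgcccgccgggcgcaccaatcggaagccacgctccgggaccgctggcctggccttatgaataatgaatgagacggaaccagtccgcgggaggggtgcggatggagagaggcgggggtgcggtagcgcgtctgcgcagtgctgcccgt
Per2: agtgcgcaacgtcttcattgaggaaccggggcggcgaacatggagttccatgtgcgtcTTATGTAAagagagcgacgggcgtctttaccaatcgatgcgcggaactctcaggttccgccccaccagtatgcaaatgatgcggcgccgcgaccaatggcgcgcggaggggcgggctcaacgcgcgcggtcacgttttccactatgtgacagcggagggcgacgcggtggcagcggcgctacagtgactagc
Counted from the start of the gene, the element of Bmal1 begins at -16, the 3 E-boxes of Ciart at -93, -35 and -21, that of Tef at -198 and the D-box of Per2 at -192. Such letters are not rare: over 33469 promoters of 250 bases before and 50 after the start, searched on both strands, 6.42% held the E-box, 2.24% the D-box and 2.63% the Rev-erb and Ror element. Of 18 clock genes with a promoter in the table, 4 held an E-box (Bhlhe40, Ciart, Nr1d1 and Tef), 1 a D-box and 1 the Rev-erb and Ror element. Of the called genes, 2 of 11 higher ones (Ankrd37 and Tef) and 0 of 15 lower ones held an E-box, and 0 and 2 (Bmal1 and Leo1) the Rev-erb and Ror element. The hypoxia core ACGTG, which lies inside the E-box, was in 4 of 11, 2 of 15 and 19.3% of all promoters. A match shows only that the letters are there.

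The VC and the TBA rats share no animal, so the anesthetic difference was set side by side in both. In VC rats alone 31 features (0.105%) were called, 17 higher (0.0574%) and 14 lower (0.0473%). In TBA rats alone 2 (0.00676%) were called, an unnamed transcript that was higher (0.00338%) and the olfactory receptor Or12j3, which was lower (0.00338%). Of the 31, 22 (71.0%) had the same sign in TBA rats, where 54.7% of all features did, and their median size of 0.86 in VC rats was 0.26 in TBA rats in the same direction. Abhd16a, a lipid hydrolase, stood at 1.11 in VC and -0.92 in TBA rats, and Tnfrsf11b, the decoy receptor osteoprotegerin, at -2.40 and -0.41. These were chosen after their values were seen. The count of 31 was 1, 2 and 0 without VC CO2-O2 rats 1, 2 and 3, 15, 0 and 10 without VC isoflurane rats 1, 2 and 3, 19 and 91 without TBA CO2-O2 rats 1 and 3, and 4 and 0 without TBA isoflurane rats 2 and 3. That of 2 was 0 without TBA CO2-O2 rat 1 or 2 or any TBA isoflurane rat, 7 without TBA CO2-O2 rat 3, and 1 without VC CO2-O2 rat 1 or any VC isoflurane rat. No feature passed the test of the difference between the sets by limma (3578, or 12.1%, at an unadjusted p under 0.05). With scan day as a fixed term 43 passed it, and the other alternatives that gave any are listed with the settings.

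**Figure D2:**
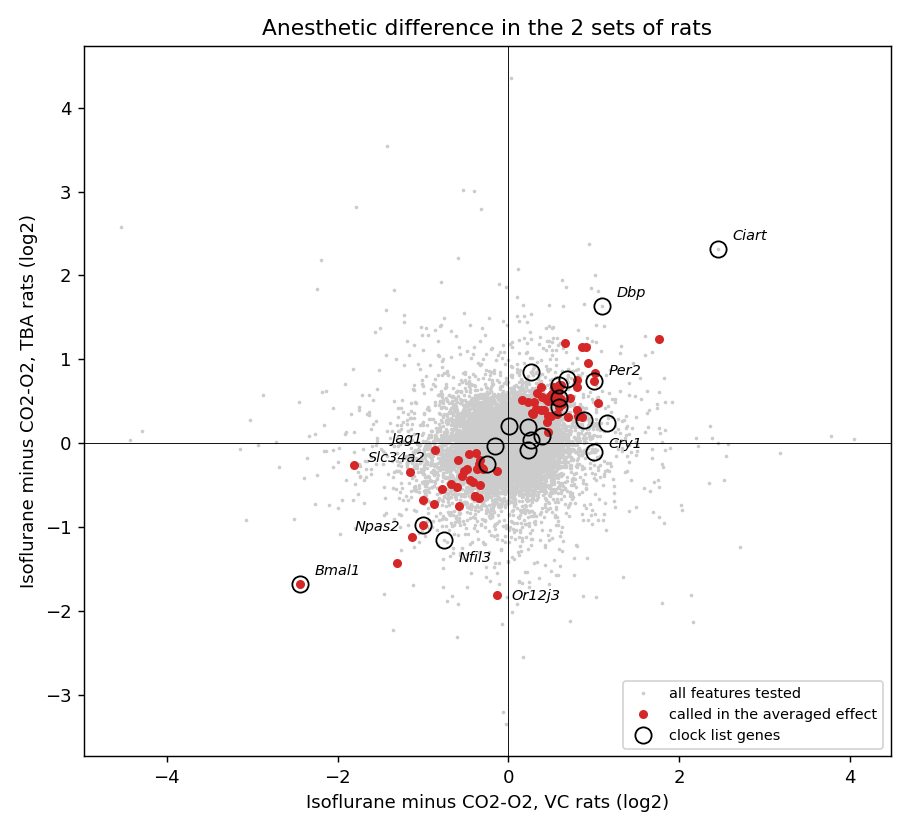
Each point is 1 of 29603 features, with the isoflurane minus CO2-O2 log2 difference in VC rats on the horizontal axis and in TBA rats on the vertical axis. Red points are the 85 called in the averaged effect and rings the 21 clock genes, of which Ciart, Dbp and Bmal1 lie far from the centre in both sets, while Cry1 is at 1.00 in VC and -0.11 in TBA rats.

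Of the 85 called features, all 85 had the same sign in both sets (54.7% of all features did). For 76 the anesthetics did not overlap in either set and lay the same way round (3.09% of all features). A call on the mean of the sets partly brings both about. In TBA rats the difference can be read from scan day 2 alone, without TBA CO2-O2 rat 3. All 85 kept their sign there, but these arrays were among those behind the calls, which partly brings this about. Bmal1 stood at -1.96, Ciart at 3.05, Dbp at 1.99 and Per2 at 0.89. None of these was called there (limma adjusted p = 0.157, 0.173, 0.184 and 0.173). The arrays compared then still lie on slides 2 and 3.

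**Figure D3:**
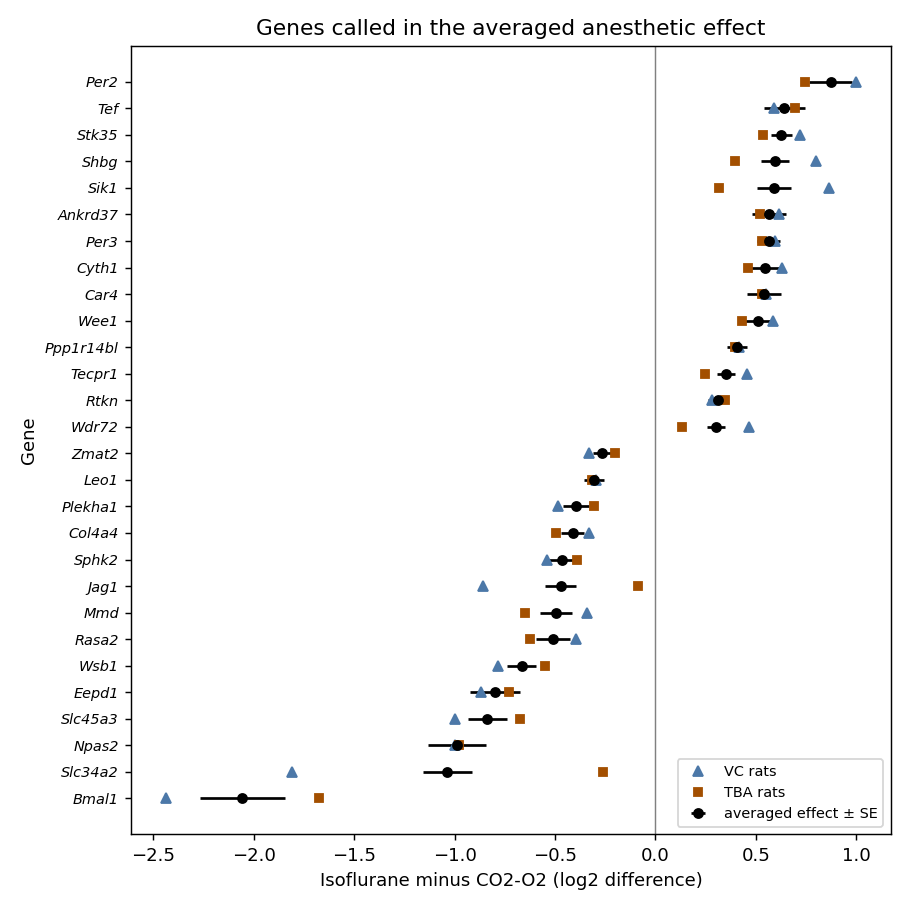
The averaged isoflurane minus CO2-O2 difference (black points, bars are SE) of 28 of the 29 called genes with a symbol is drawn on the log2 scale beside the difference in VC rats (triangles) and in TBA rats (squares). Or12j3 is left out because it was not well above background in TBA isoflurane rats. Bmal1 is the lowest at -2.06 and Per2 the highest at 0.87, and Slc34a2 and Jag1 are at -1.81 and -0.86 in VC and at -0.26 and -0.09 in TBA rats, a difference between the sets that did not pass its test.

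Outside the clock lists, Stk35, a serine/threonine kinase of the nucleus, had the lowest adjusted p of the genes with a symbol. It lay under CO2-O2 at -2.02, -2.03 and -2.08 in VC and -2.10, -1.95 and -2.23 in TBA rats, and under isoflurane at -1.38, -1.28 and -1.31 in VC and -1.58, -1.53 and -1.55 in TBA rats. The 6 isoflurane rats were above all CO2-O2 rats. The rise was 0.63 ± 0.05 (limma adjusted p = 0.00327). A second Stk35 probe gave 0.29 and was not called on its own (limma adjusted p = 0.0961). Shbg, the carrier of sex steroids in blood, lay at 5.28 to 5.69 in the CO2-O2 rats and at 5.77 to 6.25 in the isoflurane rats, again apart. It rose by 0.60 ± 0.07 (limma adjusted p = 0.0146), with an adjusted p of up to 0.0513 by limma without VC CO2-O2 rat 3 or TBA CO2-O2 rat 1. A second, dimmer Shbg probe gave 0.28 and was not called on its own (limma adjusted p = 0.172).

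Sik1, a salt-inducible kinase that restrains CREB coactivators and is induced by cAMP, rose by 0.59 ± 0.08 (limma adjusted p = 0.0267). In VC rats it lay at -1.59, -1.82 and -1.72 under CO2-O2 and at -1.01, -0.65 and -0.89 under isoflurane, and in TBA rats at -2.02, -1.76 and -1.99 and at -1.54, -1.78 and -1.51. The rise was clear of the spread in VC rats (0.87), and the TBA groups overlapped (0.32); the call held in 4 of 12 omissions of 1 array. Of the other 11 members of the list of salt-inducible kinases and CREB targets that were tested, none was called (0.287% of all features were). Ankrd37, a small ankyrin protein known as a hypoxia target, was at 2.51 to 2.97 in the CO2-O2 rats and at 3.15 to 3.51 in the isoflurane rats. It rose by 0.57 ± 0.09 (limma adjusted p = 0.0338), and the call held in 2 of 12 omissions of 1 array. Of 22 hypoxia response genes tested, whose median was 0.04, it was the only one called (0.287% of all features were). Lists of this size say little by their calls. Vegfa, the growth factor of vessels that hypoxia induces, stood at -0.03 ± 0.06 (limma adjusted p = 0.835).

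Car4 is a carbonic anhydrase held on the outside of tubule cells, where it turns CO2 and water into bicarbonate and acid and back. It lay under CO2-O2 at 5.04, 5.23 and 5.05 in VC and 5.03, 4.96 and 5.13 in TBA rats, and under isoflurane at 5.80, 5.72 and 5.45 in VC and 5.35, 5.73 and 5.63 in TBA rats. All isoflurane rats were above all CO2-O2 rats. Car4 was 0.54 ± 0.08 higher under isoflurane (limma adjusted p = 0.0399), 0.55 in VC and 0.53 in TBA rats, and the call was lost without 10 of the 12 arrays when each was left out. Of 12 carbonic anhydrases tested it was the only one called (0.287% of all features were), and 9 were above 0 with a median of 0.08. The signal summed over the other 11 lay at 61.6 to 69.7 under isoflurane and 57.5 to 65.7 under CO2-O2, in multiples of the 75th percentile, and overlapped. Of 9 genes of pH and CO2 sensing and 17 of acid and ammonia transport none was called, with medians of 0.10 and 0.06. At these sizes a list says little by its calls. An unadjusted limma p under 0.05 was found for 6 of the 12 carbonic anhydrases, 3 of the 9 and 5 of the 17, against 17.2% of all features.

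The other called rises were smaller. Cyth1, an activator of ARF GTPases, rose by 0.55, Ppp1r14bl by 0.41, Tecpr1, which acts in autophagy, by 0.35, Rtkn by 0.31 and Wdr72 by 0.30. Wdr72 overlapped between the anesthetics in TBA rats. For the other 4 genes the 6 and 6 arrays did not overlap (1.2% of all features), which being called partly brings about. In 12 omissions of 1 array Ppp1r14bl was called in 9, Tecpr1 in 7, Cyth1 in 2 and Rtkn and Wdr72 in 1. Other probes gave 0.18 and 0.22 for Tecpr1 and 0.13 for Rtkn, and none of these was called on its own.

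Among the genes that fell, Slc34a2, a sodium and phosphate cotransporter best known from gut and lung, was apart between the anesthetics in VC rats and overlapped in TBA rats. In VC rats it lay at -2.83, -2.98 and -2.90 under CO2-O2 and at -4.88, -4.73 and -4.52 under isoflurane. In TBA rats it lay at -3.56, -3.29 and -3.62 under CO2-O2 and at -3.34, -4.05 and -3.87 under isoflurane, so that TBA isoflurane rat 1 was among the CO2-O2 rats. The averaged fall was -1.04 ± 0.12 (limma adjusted p = 0.0139), from -1.81 in VC and -0.26 in TBA rats, and without VC CO2-O2 rat 3 it was not called (limma adjusted p = 0.0513). Jag1, a Notch ligand, stood at -0.86 in VC and -0.09 in TBA rats, with a mean of -0.47 (limma adjusted p = 0.0485). The difference between the sets did not pass for Slc34a2 (limma adjusted p = 0.163) or Jag1 (limma adjusted p = 0.204).

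Slc45a3, of a family of sugar transporters, and Wsb1, an adaptor of a ubiquitin ligase, fell in both sets. Slc45a3 lay in the CO2-O2 rats at 0.28 to 0.83 and in the isoflurane rats at -0.71 to 0.28, where TBA isoflurane rat 1 was the highest and still below the lowest CO2-O2 rat. It fell by 0.84 on the log2 scale (SE 0.10, limma adjusted p = 0.0129), with 3 of 3 probes at -0.84 to -0.79. Wsb1 lay in VC rats at 3.96, 3.95 and 3.87 under CO2-O2 and at 3.33, 3.02 and 3.09 under isoflurane, and in TBA rats at 4.86, 4.62 and 4.94 and at 4.16, 4.32 and 4.29. The groups were apart within each set, and TBA rats stood above VC rats under either gas. It fell by 0.67 (SE 0.07, limma adjusted p = 0.00955).

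Smaller falls were called for Eepd1, a nuclease-family protein (-0.80), Rasa2, which switches off Ras (-0.51), Mmd (-0.50) and Sphk2, which makes sphingosine 1-phosphate (-0.47). They were also called for Col4a4, a collagen chain of the glomerular basement membrane (-0.41), Plekha1 (-0.40), Leo1, of the PAF1 complex of RNA polymerase II (-0.30), and Zmat2 (-0.27). For these 8 genes the anesthetics did not overlap within either set (3.09% of all features), which being called partly brings about. In 12 omissions of 1 array Leo1 and Zmat2 were called in 0, Eepd1 and Mmd in 1, Rasa2, Sphk2 and Plekha1 in 2 and Col4a4 in 3, and with a scan day term or no filter on dim probes none of the 8 was called. The other probes of Zmat2 gave -0.02 and 0.00. Or12j3 was called lower (limma adjusted p = 0.0185) but was well above background on 7 of 12 arrays and on none of the TBA isoflurane rats, so no size is given.

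**Figure D4:**
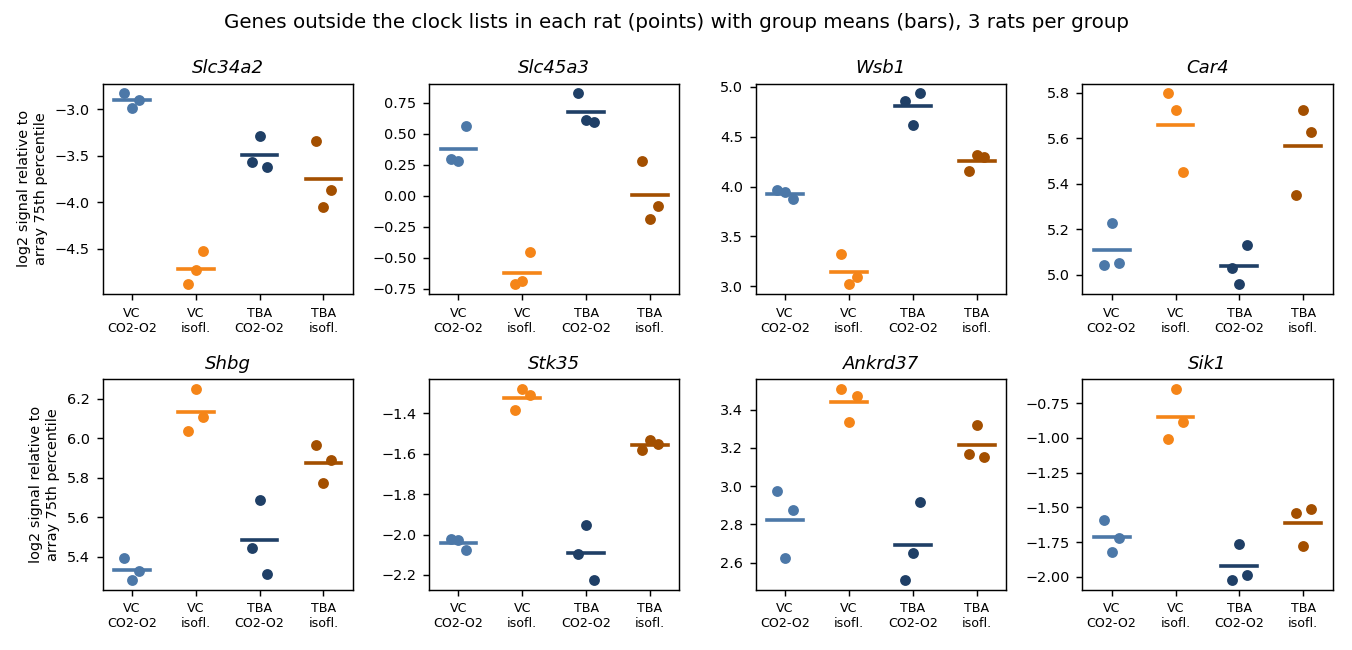
Each panel plots 1 called gene outside the clock lists as the log2 signal relative to the array's 75th percentile, with 1 point per rat and a bar at the group mean. Car4, Shbg, Stk35 and Ankrd37 stand higher in all 6 isoflurane rats than in any CO2-O2 rat, while the fall of Slc34a2 is -1.81 in VC and -0.26 in TBA rats.

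Most called features, 56 of 85, carry no symbol in the name table, 39 of them higher and 17 lower. The lowest adjusted p of all features belonged to the array's transcript TC613235, which lay at -2.22 to -1.74 in the CO2-O2 rats and at -1.07 to -0.95 in the isoflurane rats. It rose by 1.02 ± 0.06 (limma adjusted p = 0.000641) and was called in TBA rats alone as well. TC577107 rose most among the called features, by 1.5 ± 0.15 (limma adjusted p = 0.00792), and was well above background on 11 of 12 arrays. The features without a symbol need not be separate genes, since 52 of their 1540 pairs correlated at over 0.9 in their deviations from group means.

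Genes that answer quickly to stress, handling and hormones were looked at as lists. With 0.287% of all features called, a list of this size says little by its calls. Of 28 immediate early genes tested none was called (median -0.04), with Fos at 0.29 ± 0.14, Egr1 at 0.25 ± 0.17 and Atf3 at -0.23 ± 0.24 (limma adjusted p = 0.309, 0.477 and 0.653). Of 19 glucocorticoid response genes none was called, and the median was 0.29 in VC and -0.04 in TBA rats. Fkbp5, a chaperone that glucocorticoids induce strongly, stood at -0.04 ± 0.30 and Tsc22d3 at -0.06 ± 0.20 (limma adjusted p = 0.957 and 0.90). Mt1, a metallothionein, stood at 0.01 ± 0.05 (limma adjusted p = 0.950), Pck1, of glucose synthesis, at 0.11 ± 0.06 (limma adjusted p = 0.355), and Cirbp, which cold induces, at -0.08 ± 0.12 (limma adjusted p = 0.764). A p that misses the threshold does not show that these levels were equal.

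Over the 24 function lists other than the clock, 3 of 368 tested genes (of 442 listed) were called, where 0.287% of all features were: Sik1, Ankrd37 and Car4. The target channels of volatile anesthetics had a median of -0.24, with 10 of 14 tested members below 0. Of 16 interferon response genes 14 were above 0, with medians of 0.04 in VC and 0.47 in TBA rats. None of the 16 had an unadjusted limma p under 0.05 (17.2% of all features did). The sign was the same in both sets for 9 of them (54.7% of all features). The alpha-2u-globulins, near-identical copies whose probes can share signal, stood 0.88 higher in the median of 4 of 11 listed members, with a smallest adjusted p of 0.49. Over all features the median was 0.01 and 51.7% were above 0.

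Cell type markers were read by their medians and summed signals, since a call is rare (0.287% of all features) and none of the 142 markers tested on 18 lists was called. All 7 red blood cell markers, among them Slc4a1, which is also on the intercalated cell list, were below 0 (median -0.32). Their summed signal, in multiples of the 75th percentile, ran from 421.1 to 708.3 under isoflurane and from 546.1 to 815.4 under CO2-O2. Of 9 lymphocyte markers 8 were below 0 (median -0.40; summed signal 1.76 to 2.71 and 2.40 to 3.38), as were 8 of 9 markers of the S3 proximal tubule (median -0.30; 303.1 to 578.5 and 397.5 to 614.7). Of 11 fibroblast and mural cell markers 10 were below 0 (median -0.14; 31.4 to 48.0 and 45.3 to 55.8). Below 0 were also 8 of 9 markers of the thick ascending limb (median -0.09; 574.2 to 772.6 and 680.3 to 808.1) and 9 of 11 of macrophages (median -0.13; 125.7 to 171.2 and 127.1 to 175.1). Above 0 were 11 of 12 markers of the S1-S2 proximal tubule (median 0.11) and 9 of 10 of principal cells of the collecting duct (median 0.15). In VC and then TBA rats the medians were -0.48 and -0.01 for S3, and -0.18 and -0.02 for thick ascending limb markers. They were -0.24 and -0.05 for fibroblast and mural, -0.49 and -0.18 for red blood cell, and -0.40 and -0.19 for lymphocyte markers. Macrophage markers stood at -0.04 and -0.16, S1-S2 markers at 0.07 and 0.09, and principal cell markers at 0.17 and 0.15. Of the 12 S1-S2 markers 6 had the same sign in both sets. The summed signals overlapped between the anesthetics for each of these lists. In whole tissue fewer cells of a type and less RNA per cell cannot be told apart, and the part of these markers in the differences above was not tested.

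**Figure D5:**
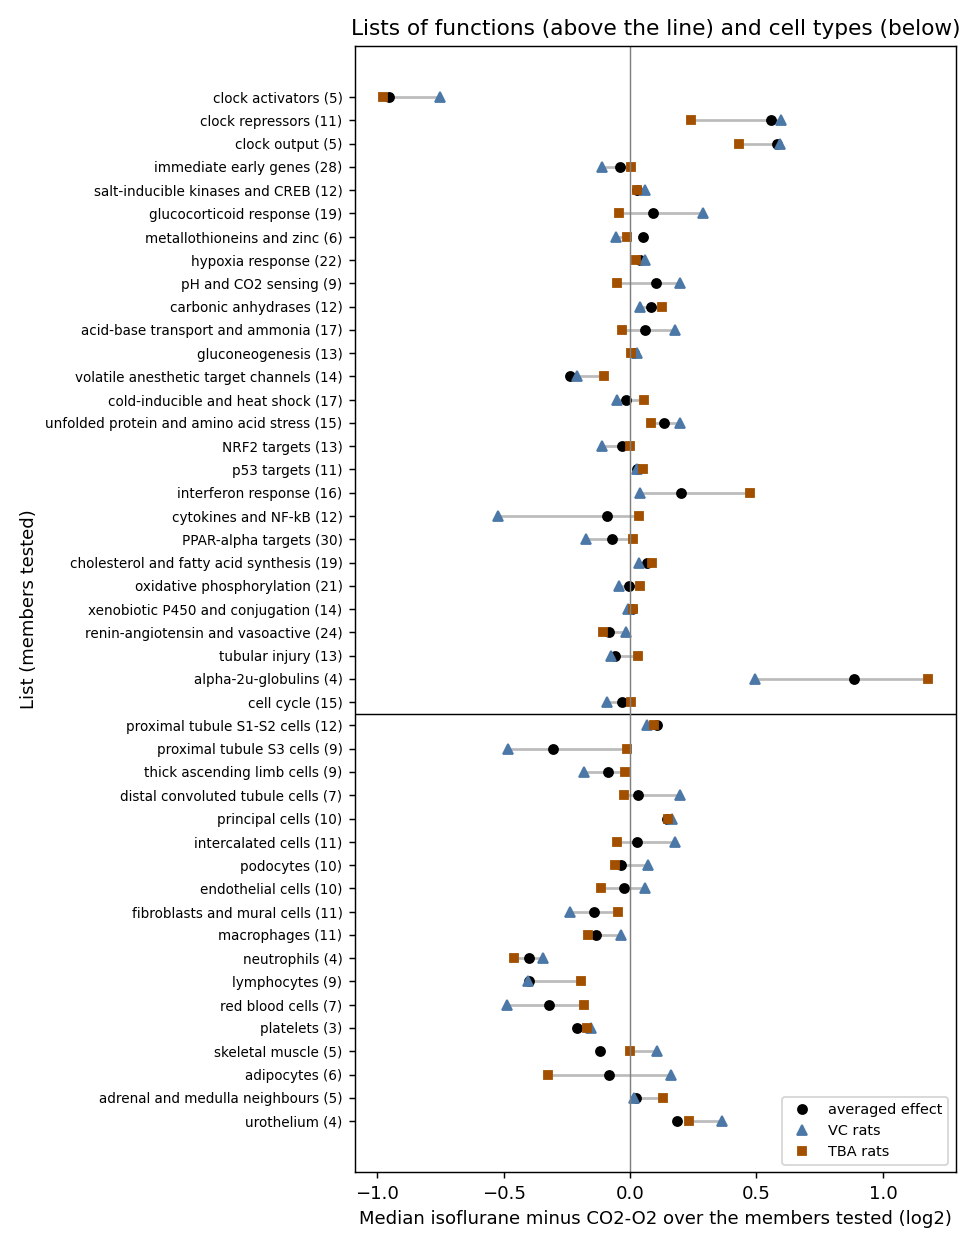
For each list the median isoflurane minus CO2-O2 log2 difference over its tested members (number in brackets) is drawn for the averaged effect (circles), the VC rats (triangles) and the TBA rats (squares). The clock activators at -0.95, the value of Nfil3, and the clock repressors and output genes at 0.56 and 0.58 lie farther from 0 than most lists. The alpha-2u-globulins at 0.88 rest on 4 members that were not called.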

How the data were processed

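Total RNA of the renal cortex of 12 rats (0.2 ug) was labelled with Cy3 for 1-colour Agilent rat arrays, per the labels' protocols. Spot intensity values were deposited as scanner output of Agilent Feature Extraction, version 10.7 in the submitters' processing notes and 10.7.1.1 in the headers, with the background already subtracted and no scaling between arrays per the file headers. The authors' series table, used as an alternative, holds a ratio to the 75th percentile (column medians 0.101 to 0.107), a scale found from its values. Centring of genes was not seen, and a 1-colour signal has no direction. Every column matched a scanner file of its own group but of a different replicate number, and the scanner files' numbers are used here.

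The processed signal was analysed on a log2 scale after subtracting the log2 75th percentile of its array, without control spots or spots with an outlier flag. A probe had to be well above background on every array of 1 or more of the groups of 3 (40216 probes), and the brightest probe stood for a symbol, for 29603 features (11689 with a symbol). Of 61657 probes, 27460 matched 1 symbol by accession in the RefSeq table of GRCr8 (15284 symbols), used for names, and 34197 none. The means of the 4 groups were estimated in limma 3.58.1 (R 4.3.3; lmFit, then eBayes; residual degrees of freedom 8, prior 1.89) and no covariate, p-values were adjusted by Benjamini-Hochberg, and the threshold was 0.05. The number of arrays limits the precision. The fit was tested on simulated data.

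The comparison, its lists and its tests were chosen with earlier results of these data known. Named are the 12 highest rises and 12 largest falls among called genes, up to 4 called members per list, and always Fos, Egr1, Atf3, Per1, Per2, Bmal1, Dbp, Nr1d1, Ciart, Vegfa, Pck1, Sik1, Fkbp5, Tsc22d3, Mt1 and Cirbp. The other clock genes and called genes were added after their values were seen. A listed clock gene is not reported here. Alternatives were normexp (offset 50, on the median signals), quantile and median scaling, the series table, no filter or a stricter one, probes averaged per gene, a random block for slide (duplicateCorrelation, statmod 1.5.0), scan day or replicate number as a term, array weights, a trend with robust spread, 2-fold or more, scan day 2 alone and each array left out. Each kept probe on its own was added after seeing the data.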

Additional observations from a re-analysis of the deposited data

Results flagged for a closer look

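Of 74 sets of 6 arrays looked at for 37 genes, 3 held an array far from the other 5. Chance alone gives about 1 in 20 where all 6 rats are of 1 kind. Each set here joins VC and TBA rats, so that rate need not hold. Atf3, an immediate early stress gene, was at -0.1748 in 1 isoflurane rat, the highest of 6, with the next at -1.517. Per1 was at -2.634 in the lowest of the 6 isoflurane rats, with the next at -1.418; both values come from TBA isoflurane rat 2. Col4a4 was at 2.535 in the highest of the 6 CO2-O2 rats, TBA CO2-O2 rat 3, with the next at 2.282.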

How the results depend on the processing

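The count of 85 was 237 (118 higher, 119 lower) with normexp, 141 (77, 64) with quantile and 95 (49, 46) with median scaling, against 53 higher and 32 lower here. It was 22 (16, 6) with no filter, 189 (114, 75) with probes well above background on all 12 arrays, 43 (32, 11) with slide as a random block, 12 (7, 5) with scan day as a fixed term, 285 (161, 124) with trend and robust spread, 220 (127, 93) with array weights and 7 (3, 4) at 2-fold or more. The series table gave 85 and the mean of a gene's probes 81. With the replicate block it was 69 (42 higher, 27 lower), 49 of them among the 85; same-numbered rats' deviations correlated at 0.00495 to 0.128, so the numbers were not taken to pair rats. Of the 6 called clock genes Tef and Wee1 were not called with this block. Leaving out each array gave 17 to 93 (11 to 68 higher, 6 to 26 lower). The count in VC rats, 31, was 850 with normexp, 92 with quantile and 52 with median scaling, 0 with no filter, 71 with the stricter filter, 18 with the mean of probes, 3 with slide, 0 with the replicate block, 283 with trend, 755 with array weights, 11 at 2-fold or more, and 0 to 91 without each array. That in TBA rats, 2, was 6 with normexp, 5 with quantile and 5 with median scaling, 1 with the stricter filter, 7 with scan day, 14 with trend and 0 to 7 without each array. For the difference between the sets 7 features passed with normexp, 2 with the stricter filter, 43 with scan day, 2 with trend and 0 to 5 without each array. The cause of these shifts was not tested. All 85 features kept their sign in every setting that tested them (82 under the stricter filter), but only 1 of 29 genes with a symbol, Bmal1, was called with scan day as a term. The settings reuse arrays that the calls came from, which partly brings the kept signs about. In the 12 omissions Bmal1, Per3, Stk35, Slc45a3 and Wsb1 were always called, and 18 of the 29 in fewer than 6. The second probe of Npas2 (0.0292) and the dimmest of Zmat2 (0.00403) had the other sign. Slide as a fixed term was not run, since it cannot give the averaged effect. Probes near background limit what can be measured, as for Or12j3.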
